A study of Mus musculus with 6 samples.

Results

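Mx2 and 9 other antiviral genes that interferon induces, Mx1, Ifit1, Ifit2, Ifit3, Oasl2, Isg15, Usp18, Rsad2 and Bst2, were followed by RNA sequencing in bEND.3 cells after knockdown of the long non-coding RNA Gm39822. They are 10 of the 49315 genes in the count table, and were taken by gene name. Mx2 was picked because its counts were higher after knockdown while those of other interferon genes were lower, so the difference between the groups is described for these 10 genes and not tested. bEND.3 is an immortalized mouse brain endothelial line, transformed with the polyomavirus middle T antigen. Cells were transfected, using Lipofectamine 2000, with either an antisense GapmeR against Gm39822 at 100 nM (4 samples, called GapmeR 1 to 4) or a negative control antisense GapmeR at the same dose (2 samples, Negative Control 1 and 2). Such an oligonucleotide has locked nucleic acid ends around a stretch of DNA and leads RNase H to cut the paired RNA. A single catalogue number is given for the Gm39822 GapmeR in the paper's methods. The loss of Gm39822 and other actions of that oligonucleotide thus cannot be told apart, and no untransfected cells were analysed here.

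Type I interferon binds the receptor made of Ifnar1 and Ifnar2, whose kinases Jak1 and Tyk2 pass the signal on to transcription factors that include Stat2 and Irf9. These bind the interferon-stimulated response element (ISRE) in the promoters of antiviral genes. The products of these genes block steps of the viral life cycle, from entry to release of virus, and several of them, Usp18 among them, also restrain the response itself.

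To show what the promoters of these genes hold, the RefSeq promoter windows of GRCm38.p6, from 250 bases before to 50 after the start site, were searched on both strands for the ISRE core (GAAA, any 2 bases, GAAA) and for the gamma-activated site (TTC, any 3 bases, GAA), the element named for the response to interferon gamma. Windows were given for 7 of the 10 genes, all but Mx1, Mx2 and Usp18. The ISRE core was in 5 of these 7 (Isg15, Bst2, Ifit1, Ifit3 and Rsad2) and in 3.44% of all 32851 windows. Of the 60 other antiviral interferon-stimulated genes listed further below, 48 had a window, and 22 of these (45.8%) held it. Isg15 held 3 overlapping copies, Bst2, Ifit1 and Ifit3 held 2 each, and Rsad2 held 1. The stretches below are written 5′ to 3′ on the strand of the gene, with the matches in capitals. A match on the opposite strand reads TTTC, any 2 bases, TTTC. They lie at chr4:156200855-156200916 (Isg15, minus strand), chr8:71537567-71537622 (Bst2, minus strand), chr19:34640765-34640833 (Ifit1, plus strand), chr19:34583353-34583436 (Ifit3, plus strand) and chr12:26456543-26456592 (Rsad2, minus strand).
Isg15: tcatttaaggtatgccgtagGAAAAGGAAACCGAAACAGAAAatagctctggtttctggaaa
Bst2: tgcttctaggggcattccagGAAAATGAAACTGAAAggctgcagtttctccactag
Ifit1: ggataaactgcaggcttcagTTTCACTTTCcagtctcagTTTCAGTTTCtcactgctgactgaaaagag
Ifit3: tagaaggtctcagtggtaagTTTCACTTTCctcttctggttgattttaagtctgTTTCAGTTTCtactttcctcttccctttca
Rsad2: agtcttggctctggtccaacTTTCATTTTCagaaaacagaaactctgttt

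The first matched base lay between 156 and 78 bases before the start site of the RefSeq promoter table in these 5 genes. For Ifit3 that start site lies within the annotated span of the gene, so its matches do too. Ifit2 and Oasl2 had no ISRE core in these windows. Ifit2 had the gamma-activated site instead, at chr19:34550444-34550481 on the plus strand, shown because it was the match found in the window of this gene.
Ifit2: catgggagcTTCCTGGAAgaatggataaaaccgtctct

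Bst2 was the other of the 7 with a gamma-activated site, and its last bases overlapped the first ISRE match. That site was in 8.30% of all windows and in 8 of the 48 other antiviral interferon-stimulated genes with a window (16.7%). A match describes the letters of the window and was not tested as a binding site.

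The samples held 29261988 to 37117934 counts each. Gm39822 had 2, 1, 4 and 2 counts in GapmeR 1 to 4 and 61 and 56 counts in the controls, which corresponds to a log2 fold change of -4.82 (standard error, SE, 0.41, edgeR's quasi-likelihood test, adjusted p = 8.8e-08). All 12 endothelial marker genes, Pecam1 and Cdh5 among them, were counted, with summed levels of 6549 to 7532 CPM (normalized counts relative to library size) in the GapmeR samples and 8636 to 8875 CPM in the controls (7 lower and 1 higher by the same test). Summed macrophage markers were 206 to 381 CPM after knockdown, highest in GapmeR 3 and 4 (348 and 381 CPM), and 172 to 176 CPM in the controls (2 of 11 tested were higher and 0 lower). Pericyte and smooth muscle markers summed to 8.62 to 13.3 CPM against 2.19 to 2.30 CPM. Of these, 2 of 7 tested were higher and 0 lower, and much of the sum was Myh11 (5.37 to 5.93 CPM against 0.365 and 0.251 CPM). Fibroblast markers summed to 15.4 to 74.2 CPM against 14.5 to 16.0 CPM. The 74.2 CPM was GapmeR 3, and of 5 tested 0 were higher and 0 lower. Astrocyte markers summed to 2.01 to 3.68 CPM against 5.83 to 6.17 CPM (2 of 4 tested were lower and 0 higher). Of 6 lymphocyte markers, 5 had at most 3 counts in every sample, and the other, Cd8a, had 0 and 1 counts in the controls and 2 to 8 after knockdown. Of 3 markers of plasmacytoid dendritic cells, Siglech had 0 counts in every sample. Ccr9 had 3 to 5 counts in the GapmeR samples and 0 in both controls and was called higher (edgeR, adjusted p = 0.013). It passed the filter on low counts (5 counts in 2 samples) only through the GapmeR group, so nothing is read from that call. The 3 markers summed to 0.0967 to 0.186 CPM against 0.0365 and 0.157 CPM. The part of these cell types in the results was not tested, and in bulk RNA fewer cells of a type and less RNA per cell cannot be told apart. Nothing in the labels says that the samples of a group were separate cultures, so the p-values measure the spread between these samples, which may be technical.

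All 10 antiviral genes had at least 3058 counts in every sample and passed the filter on low counts. After knockdown 9 of them were lower in every GapmeR sample than in both controls, and Mx2 was higher in every GapmeR sample than in both controls. Over the 18234 genes tested, 27.3% were lower and 31.9% were higher in this way. By the threshold of an adjusted p under 0.05 in edgeR's test, 20.0% of all genes were lower and 25.4% were higher. Because the 10 genes were chosen on this comparison, nothing is read from how many of them moved each way. Without Negative Control 1 or Negative Control 2 the number of lower genes over the whole table was 2262 or 1930 in place of 3643. Levels are given in CPM scaled by edgeR's TMM method, with SD between samples, and a log2 fold change is of GapmeR over Negative Control. Each SE was worked back from edgeR's test, as the size of the log2 fold change over the square root of the F statistic. It thus holds the same information as the test, and for the 10 genes no significance is read from it.

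**Figure D1:**
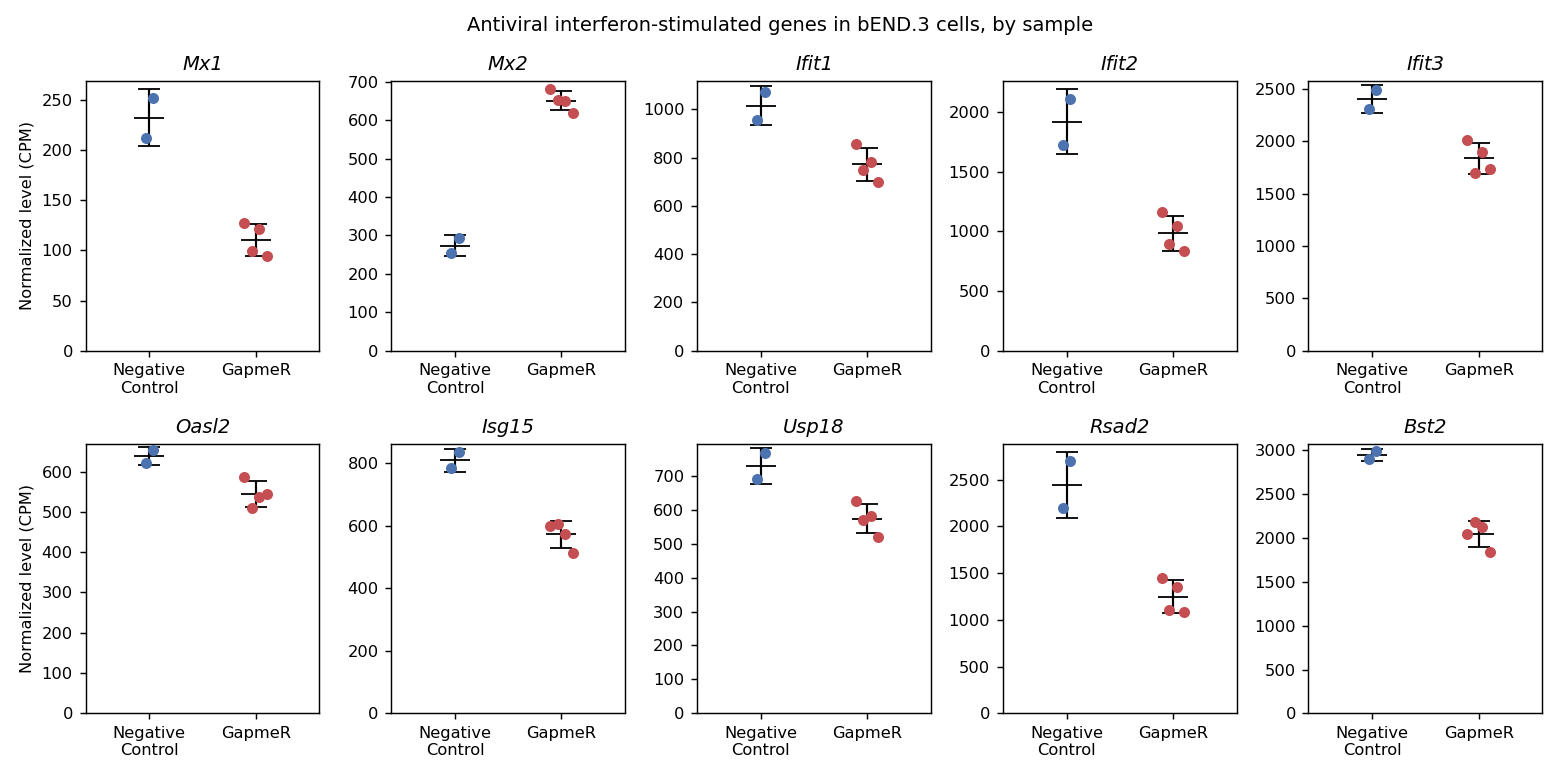
Normalized level (CPM, linear axis from 0) of the 10 antiviral genes, 1 panel per gene, with 1 point per sample, Negative Control in blue (n = 2) and GapmeR in red (n = 4). The horizontal mark is the mean and the bar 1 SD. Mx2 is the panel in which the red points lie above the blue ones, at 620 to 680 CPM against 254 and 293 CPM.

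The paralogs Mx1 and Mx2, dynamin-like GTPases that trap viral components inside the cell, differed in direction. Mx2 (ENSMUSG00000023341) was at 680, 653, 649 and 620 CPM in GapmeR 1 to 4 and at 254 and 293 CPM in the controls. The 4 GapmeR values were all more than the higher control, and the groups did not overlap. The means were 650 ± 24.7 CPM (SD, n = 4) for GapmeR and 274 ± 27.8 CPM (SD, n = 2) for the controls. Mx2 was thus 2.38-fold higher, or 1.25 on the log2 scale (SE 0.08). Mx1 (ENSMUSG00000000386) was at 127, 99.1, 121 and 94.7 CPM in GapmeR 1 to 4 and at 212 and 252 CPM in the controls. Every GapmeR sample was under both controls, and samples 1 and 3 were the higher pair. The means were 110 ± 16.0 CPM (SD, n = 4) for GapmeR and 232 ± 28.4 CPM (SD, n = 2) for the controls. Mx1 was thus 2.10-fold lower, with a log2 value of -1.07 (SE 0.12).

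The share of Mx2 in the raw counts of the pair within each library does not depend on the scaling between libraries, and it was higher in every GapmeR sample. Mx2 took 54.5% of the summed Mx1 and Mx2 counts in Negative Control 1 (95% Clopper-Pearson interval 53.6 to 55.4%) and 53.8% in Negative Control 2 (53.0 to 54.5%). In GapmeR 1 to 4 it took 84.3% (83.8 to 84.7%), 86.8% (86.4 to 87.2%), 84.3% (83.8 to 84.7%) and 86.7% (86.3 to 87.2%). The intervals cover counting error only. The group means were 85.5% ± 1.45 (SD, n = 4) and 54.1% ± 0.516 (SD, n = 2), a difference of 31.4 percentage points that was 30.9 to 31.8 points when each sample was left out in turn. Within the summed counts of the 10 genes, Mx2 took 6.71 to 7.30% in the GapmeR samples and 2.01 to 2.07% in the controls. Mx2 was picked for rising while other interferon genes fell, so its higher shares follow from that choice. Nothing is read from the narrow intervals or from the stable difference.

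**Figure D2:**
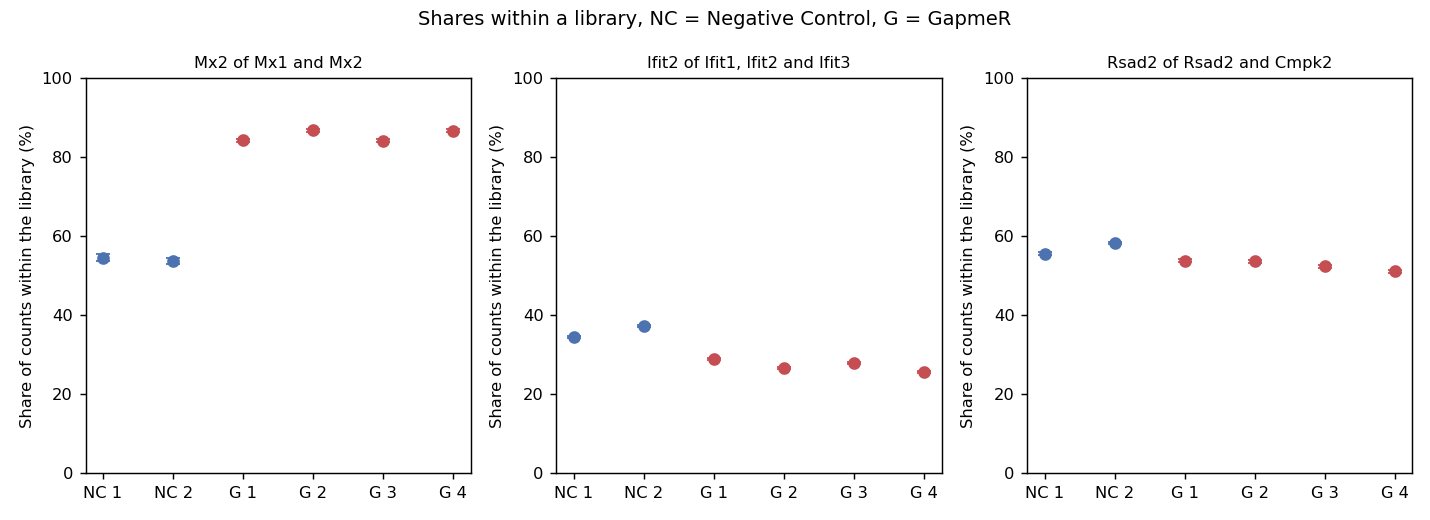
Share of counts within a library (%, axis 0 to 100) for Mx2 of the Mx1 and Mx2 counts, Ifit2 of the 3 Ifit counts, and Rsad2 of the Rsad2 and Cmpk2 counts, with 1 point per sample (NC, Negative Control, blue, and G, GapmeR, red) and 95% Clopper-Pearson intervals. The Mx2 share is 53.8 and 54.5% in the controls and 84.3 to 86.8% in the GapmeR samples, while the other 2 shares are lower in the GapmeR samples.

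Mx1 and Mx2 lie near each other on chromosome 16 of mm10, with Fam3b between them, Mx1 at 97447035 to 97462906 on the minus strand and Mx2 at 97536081 to 97560901 on the plus strand. Many inbred laboratory mice carry disrupted Mx genes. RefSeq lists both genes of this genome as transcribed pseudogenes and GENCODE as protein-coding, and which alleles bEND.3 cells carry was not tested. No 150-base stretch of the Mx1 or Mx2 transcripts was shared with another gene, a length equal to the sequenced reads. The counting program's strand setting is not given in the sources used here, and 2.20% of the Mx1 exon bases and 0% of the Mx2 exon bases overlapped another gene.

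The genes around them differed in direction. Tmprss2, a transmembrane serine protease whose annotated end lies 3.78 kb from that of Mx2 on the opposite strand, was at 3.33, 3.57, 2.51 and 3.19 CPM after knockdown and at 0.767 and 0.376 CPM in the controls. It rose by 2.49 on the log2 scale (edgeR, adjusted p = 3.6e-06, SE 0.29), the same direction as Mx2 at a far lower level. On the other side, Fam3b, which encodes a secreted cytokine-like protein, fell by 0.97 on the log2 scale (adjusted p = 0.0063, edgeR), a call that was lost without Negative Control 2 (log2 fold change -0.70). Ripk4, the next tested gene beyond Tmprss2, had 3 to 5 counts in the GapmeR samples and 0 in both controls. It passed the filter on low counts only through the GapmeR group, so nothing is read from its difference. For Bace2, beside Mx1, the log2 fold change was 0.05 (edgeR, adjusted p = 0.68). Each GapmeR library had counts for at least 22830 genes, while Negative Control 1 had them for 20573 and Negative Control 2 for 21087. Dropping the filter on low counts moved the median log2 fold change of all genes from 0.03 to 0.16. With 4 GapmeR samples and 2 controls, the few counts of a weakly counted gene fall more often in a GapmeR sample. Nothing is therefore read from the move of the median. Whether the rise of Tmprss2 and Ripk4 is particular to this locus was not tested.

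**Figure D3:**
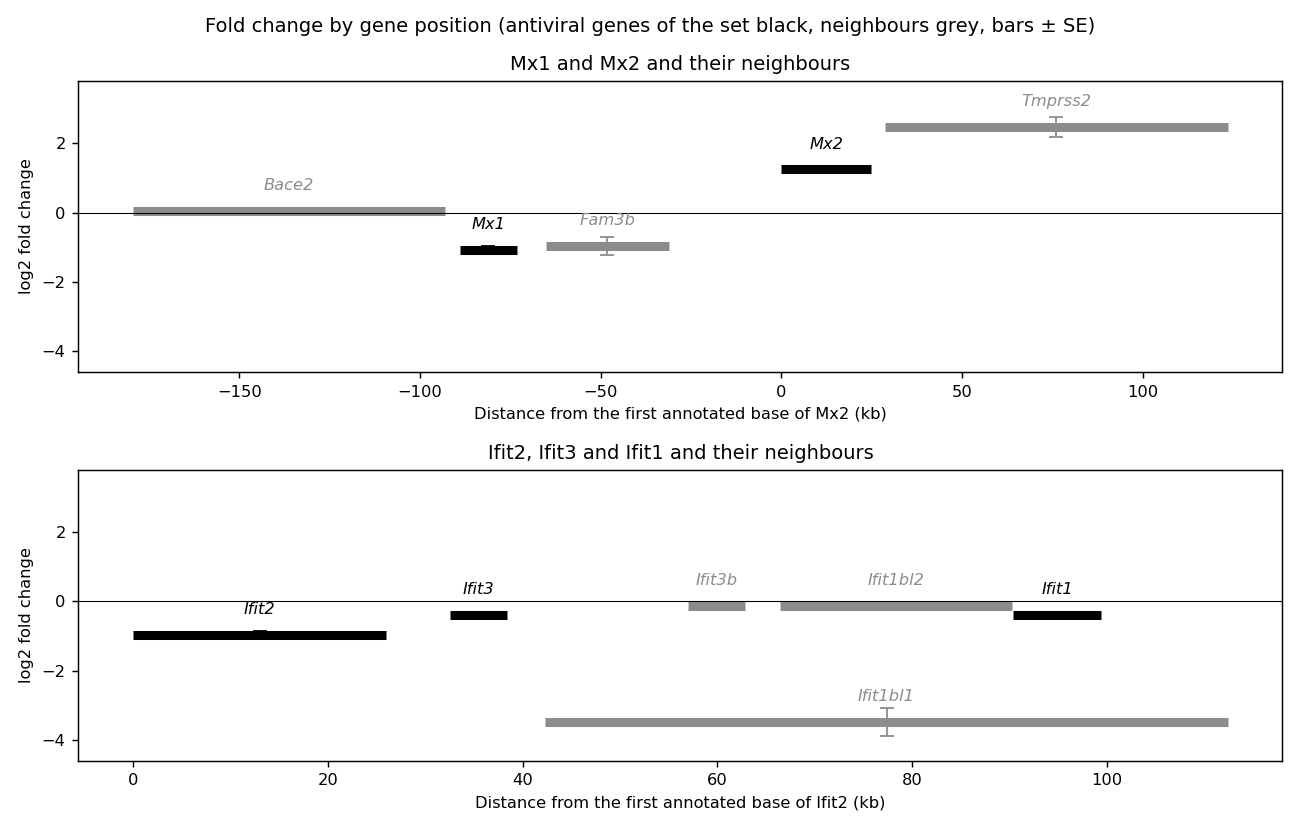
Log2 fold change (GapmeR over Negative Control, bars ± SE) against distance in kb from the first annotated base of Mx2 (top) or Ifit2 (bottom), with Mx1, Mx2, Ifit2, Ifit3 and Ifit1 in black and their neighbours in grey, each drawn over its annotated span. Mx2 (1.25) and Tmprss2 (2.49) lie above 0 and Mx1 (-1.07) and Fam3b (-0.97) below it, and in the Ifit cluster Ifit1bl1 (-3.47) lies far under Ifit2 (-0.97), Ifit3 (-0.39) and Ifit1 (-0.40).

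The 3 Ifit genes encode tetratricopeptide proteins that bind viral RNA or hold back its translation, and all were lower after knockdown, Ifit2 by the most. Ifit2 was at 1161, 892, 1041 and 834 CPM in GapmeR 1 to 4 and at 1725 and 2110 CPM in the controls, a log2 difference of -0.97 (SE 0.13). Ifit1, which recognizes the 5′ ends of RNA that lack cap methylation, was at 857, 748, 782 and 699 CPM against 958 and 1074 CPM, a log2 difference of -0.40 (SE 0.09). Ifit3, a partner of other Ifit proteins, was at 2015, 1703, 1901 and 1738 CPM against 2308 and 2497 CPM, a log2 difference of -0.39 (SE 0.09). In none of the 3 genes did the groups overlap, and GapmeR 1 and 3 were the higher pair in each.

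Within the summed counts of the 3 genes, Ifit2 took 28.8, 26.7, 28.0 and 25.5% in GapmeR 1 to 4 and 34.6 and 37.1% in the controls. The share of Ifit1 was 21.5% ± 0.603 (SD, n = 4) after knockdown and 19.0% ± 0.208 (SD, n = 2) in the controls, and that of Ifit3 was 51.3% ± 1.33 and 45.1% ± 1.62. None of the 3 shares overlapped between the groups. They are parts of the same sum over genes chosen on this comparison, and no background of other genes was computed. Nothing is therefore read from the lack of overlap. The genes lie near each other on chromosome 19 of mm10, Ifit2 at 34550550 to 34576534, Ifit3 at 34583119 to 34588982 and Ifit1 at 34640889 to 34650009, all on the plus strand. The near copies Ifit3b and Ifit1bl2 shared 150-base stretches with 10.9% of the Ifit3 transcript and 0.426% of the Ifit1 transcript, so reads from these may have been split.

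The other genes of the cluster spanned a wide range. Ifit1bl1, an Ifit1-like paralog, was at 126, 63.8, 110 and 55.0 CPM in GapmeR 1 to 4 and at 886 and 1077 CPM in the controls. It fell by 3.47 on the log2 scale (SE 0.41, adjusted p = 0.0030, edgeR), and again GapmeR 1 and 3 were the higher pair. Its RefSeq span covers that of Ifit1 but the exons of the pair share 0% of their bases in GENCODE. The log2 fold changes of Ifit3b (-0.14, adjusted p = 0.21) and Ifit1bl2 (-0.12, adjusted p = 0.36) did not pass edgeR's test.

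Isg15, a ubiquitin-like protein that is joined to other proteins during infection, and Usp18, the protease that removes it and also blocks the type I interferon receptor, were both lower after knockdown. Isg15 was at 598, 606, 572 and 512 CPM in GapmeR 1 to 4 and at 784 and 835 CPM in the controls, a log2 difference of -0.50 (SE 0.08). Usp18 was at 625, 570, 581 and 520 CPM against 691 and 766 CPM, a log2 difference of -0.34 (SE 0.08). The groups did not overlap for either gene. Isg15 lies on chromosome 4 of mm10 at 156199424 to 156200818 (minus strand) and Usp18 on chromosome 6 at 121245906 to 121270917 (plus strand). A limit for Isg15 is that 31.1% of its exon bases overlap Gm46878 on the opposite strand and 15.0% of its 150-base stretches are shared with it, while for Usp18 the exon overlap was 4.62%.

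The enzymes that attach Isg15 differed in direction. Uba7, the activating enzyme, was at 128, 112, 129 and 128 CPM after knockdown and at 115 and 120 CPM in the controls, with a log2 fold change of 0.08 (adjusted p = 0.41, edgeR). Scaled by library size alone it passed the test (log2 fold change 0.23). Ube2l6, the conjugating enzyme, fell by 0.30 on the log2 scale (SE 0.07, adjusted p = 0.0030, edgeR), a call that was lost without Negative Control 2 (log2 fold change -0.27) and with scaling by library size alone (-0.15). Herc6, which acts as the main Isg15 ligase of mice, rose from 60.9 and 65.7 CPM to 98.9, 101, 85.4 and 94.6 CPM, which is 0.59 on the log2 scale (edgeR, adjusted p = 2.4e-05, SE 0.08). Trim25, another ligase with a role in RNA sensing, fell by 0.22 on the log2 scale (adjusted p = 0.024, edgeR). The Trim25 call was lost in 8 of 14 alternatives, among them those without GapmeR 3 (log2 fold change -0.19), GapmeR 4 (-0.21), Negative Control 1 (-0.27) or Negative Control 2 (-0.12).

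Rsad2, or viperin, a radical SAM enzyme that makes a chain-terminating nucleotide, was at 1445, 1106, 1355 and 1088 CPM in GapmeR 1 to 4 and at 2193 and 2693 CPM in the controls. The gene lies on chromosome 12 of mm10 at 26442743 to 26456452 (minus strand). Rsad2 differed by -0.97 on the log2 scale (SE 0.12), the groups did not overlap, and GapmeR 1 and 3 were again the higher pair. Cmpk2, the mitochondrial nucleotide kinase that lies 12.7 kb away and is induced together with Rsad2, fell by 0.72 on the log2 scale (SE 0.10, adjusted p = 4.4e-05, edgeR). Rsad2 took 53.8, 53.6, 52.4 and 51.2% of the counts of the pair in GapmeR 1 to 4 and 55.6 and 58.2% in the controls. The shares did not overlap between the groups. Rsad2 was chosen on this comparison and no background of other pairs was computed, so this is description only.

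Oasl2, of the oligoadenylate synthetase-like family, had the smallest difference of the 10. It was at 586, 510, 538 and 543 CPM in GapmeR 1 to 4 and at 622 and 655 CPM in the controls, with a log2 value of -0.23 (SE 0.08) that was -0.08 with scaling by library size alone. It lies on chromosome 5 of mm10 at 114896926 to 114912245 (plus strand). Its neighbour and paralog Oasl1 was at 178, 99.0, 179 and 108 CPM against 262 and 305 CPM, a difference of -1.01 on the log2 scale (SE 0.32) that did not pass the test (adjusted p = 0.061, edgeR). Oasl1 did pass in 5 of 14 alternatives, DESeq2's Wald test and the fit without GapmeR 1 (log2 fold change -1.14) among them.

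Bst2, or tetherin, which holds budding virus at the cell surface, was at 2046, 2183, 2121 and 1842 CPM in GapmeR 1 to 4 and at 2897 and 2994 CPM in the controls. The means were 2048 ± 148 CPM (SD, n = 4) for GapmeR and 2945 ± 68.8 CPM (SD, n = 2) for the controls, with a log2 value of -0.52 (SE 0.08). The groups did not overlap. Bst2 lies on chromosome 8 of mm10 at 71534255 to 71537472 (minus strand).

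The 10 genes had a median log2 fold change of -0.45, and all genes tested one of 0.03. With scaling by library size alone the median of all genes moved to 0.17, and of the genes called 74.1% were higher in place of 55.9%. Relative to the median of all genes, Mx2 was at 1.22, Mx1 at -1.10 and Oasl2 at -0.26 with both scalings. A change of scaling shifts all genes by nearly the same amount, so this agreement follows from the arithmetic. None of the 10 changed sign under any of the 14 alternatives tried. These refit the same counts on which the 10 genes were chosen, so nothing is read from the stable signs. Without GapmeR 3 and 4, the samples with the most macrophage marker counts, Mx2 had a log2 fold change of 1.31. The other 9 genes then had values between -1.02 (Mx1) and -0.20 (Oasl2). GapmeR 1 and 2 still had macrophage marker sums of 226 and 206 CPM against 176 and 172 CPM in the controls, so this fit does not remove that difference.

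**Figure D4:**
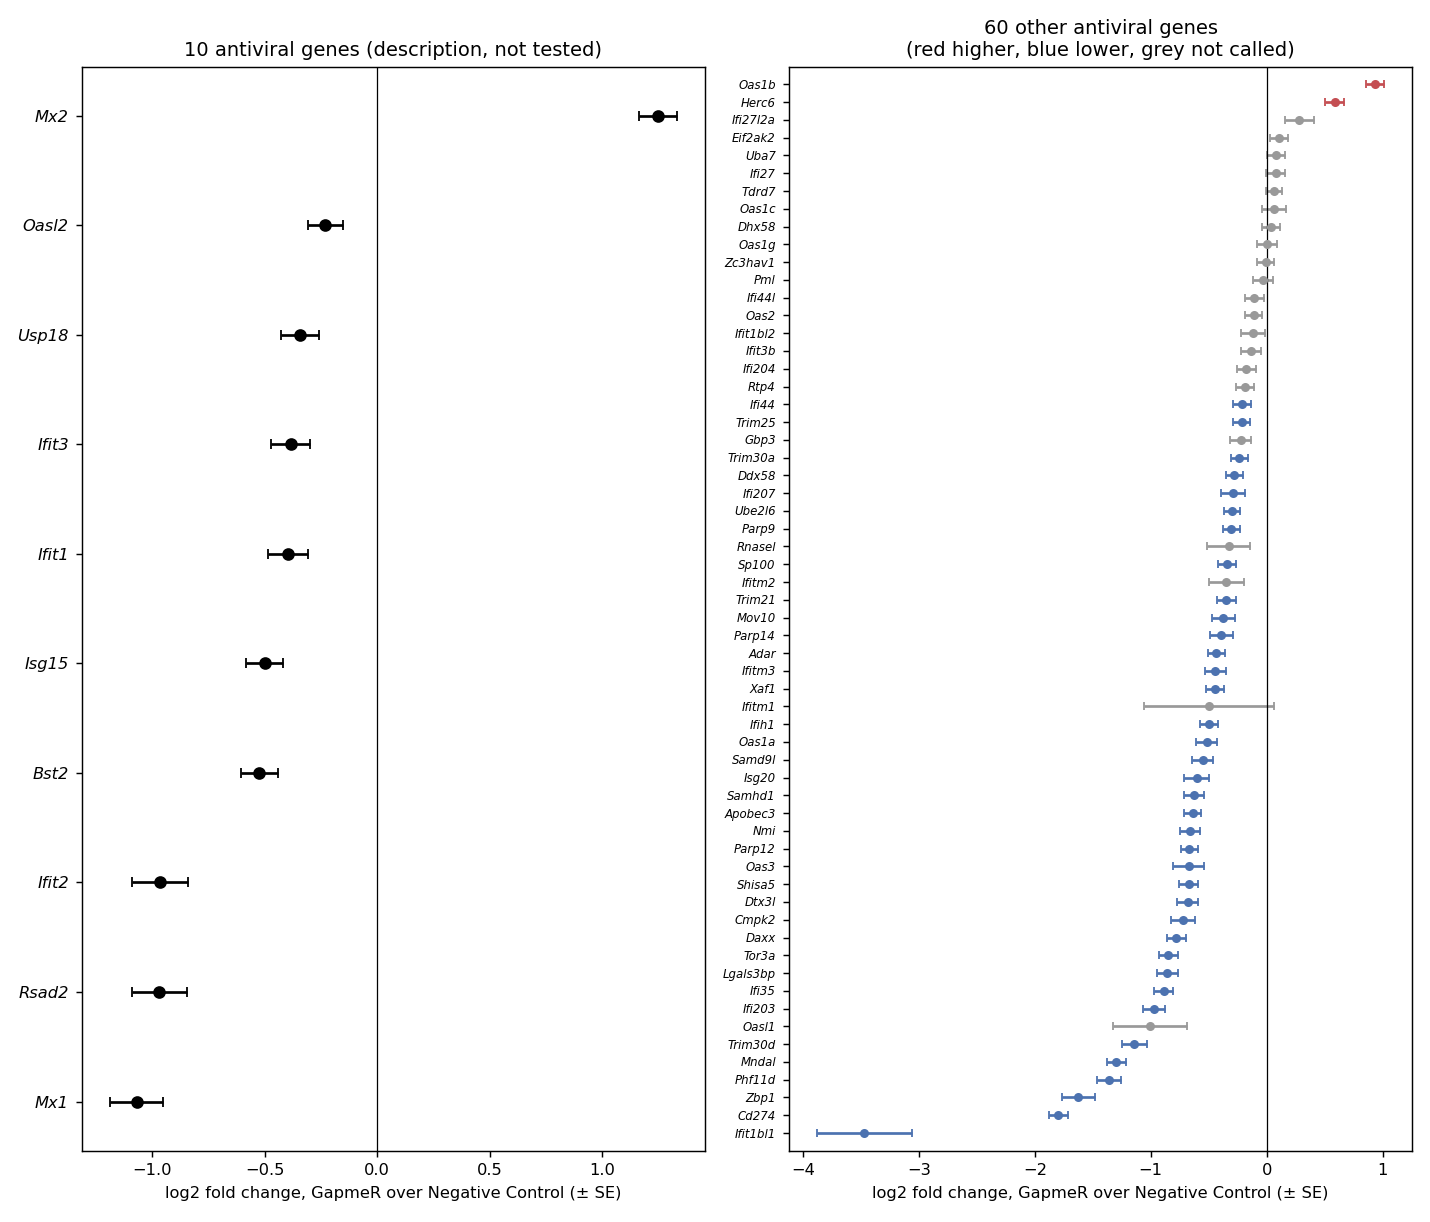
Log2 fold change (GapmeR over Negative Control, bars ± SE) of the 10 antiviral genes (left, not tested) and of 60 other antiviral interferon-stimulated genes (right, coloured where the adjusted p of edgeR's test was under 0.05, red higher and blue lower). The horizontal scales differ. Mx2 lies at 1.25 and the other 9 genes between -1.07 and -0.23, and on the right Oas1b (0.94) and Herc6 (0.59) are the 2 red points among 37 blue ones.

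The counts of the 10 genes together made up 1.04, 0.951, 0.990 and 0.883% of the library in GapmeR 1 to 4 and 1.18 and 1.32% in the controls. Levels of different genes were compared as CPM per kb of exon. In the controls the order was Bst2 (2426 ± 56.7 CPM per kb), Isg15 (1035), Ifit3 (834), Rsad2 (564), Ifit2 (325), Usp18 (224), Ifit1 (137), Oasl2 (100.2), Mx2 (75.7 ± 7.71) and Mx1 (68.8 ± 8.42). Mx2 and Mx1 overlapped between samples there, and every other pair of neighbours in that order lay apart. After knockdown Mx2 was at 180 ± 6.84 CPM per kb, in place 5 of the order, overlapping Usp18 (177 ± 13.2), and Mx1 was last at 32.8 ± 4.73 CPM per kb. Isg15 (732) and Ifit3 (639) overlapped after knockdown, as did Usp18 and Ifit2 (166). The order depends on the length used. With the longest annotated transcript in place of all exon bases, Oasl2 (204 CPM per kb) stood above Ifit1 (137) in the controls, and after knockdown Mx2 (263) was in place 6, under Usp18 (268).

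**Figure D5:**
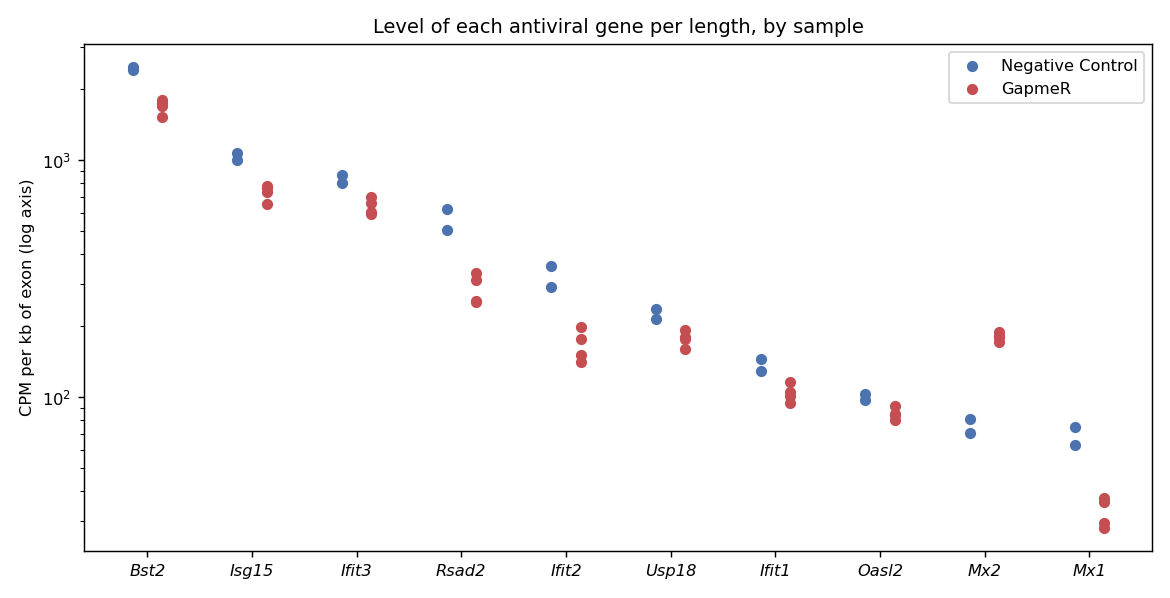
Level of each of the 10 antiviral genes in CPM per kb of exon (log axis), 1 point per sample, Negative Control in blue and GapmeR in red, ordered by the control mean. Mx2 (75.7 in the controls and 180 after knockdown) is the gene whose red points lie above the blue ones, and Bst2 (2426 and 1687) is the highest in both groups.

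Some of these genes were among the most abundant of the cells. Of 17965 genes ranked by CPM per kb, Bst2 ranked 3 to 9 over the 6 samples, Isg15 19 to 27 and Ifit3 22 to 30. Mx2 ranked between 174 and 619 and Mx1 between 587 and 1435.

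A list of 60 other antiviral interferon-stimulated genes, all of them tested, was mostly lower or not called. By edgeR's test 37 were lower (61.7%), 2 were higher (3.33%) and 21 did not pass, against 20.0% and 25.4% over all genes, and the median log2 fold change was -0.36. The list was chosen with earlier results of these data known, among them that other interferon genes were lower. The shares are thus description only, and nothing is read from their distance to those of all genes. Oas1b, an oligoadenylate synthetase relative that many laboratory strains carry in a truncated form, was at 115, 102, 115 and 114 CPM after knockdown and at 58.7 and 58.1 CPM in the controls. It rose by 0.94 on the log2 scale (edgeR, adjusted p = 6.6e-08, SE 0.08), and Herc6, above, was the other that rose. With scaling by library size alone 8 were higher in place of 2.

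The lower genes of that list with the largest changes after Ifit1bl1 were Cd274, Zbp1, Phf11d and Mndal. Cd274 was listed as an interferon-stimulated gene and encodes the immune checkpoint ligand PD-L1 rather than an antiviral effector. Its level fell by 1.80 on the log2 scale (SE 0.09, adjusted p = 1.1e-10, edgeR). Zbp1, a sensor of Z-form nucleic acid, fell by 1.63 (SE 0.14, adjusted p = 2.0e-05, edgeR). Phf11d fell by 1.36 (adjusted p = 1.5e-07) and Mndal, of the interferon-inducible p200 family, by 1.30 (adjusted p = 2.3e-09), both by edgeR. Without GapmeR 3 and 4 the list had 32 lower and 2 higher genes.

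The order of the 4 GapmeR samples, noticed after the values were seen, was shared by many of these genes. GapmeR 1 and 3 were the higher pair in 6 of the 10 genes (Mx1, Ifit1, Ifit2, Ifit3, Usp18 and Rsad2), in 41 of the 60 others (68.3%) and in 19.0% of all genes tested. Mx2, Oasl2, Isg15 and Bst2 were not among them. Genes of 1 library share its depth and handling, so these are not independent points, and what sets samples 1 and 3 apart was not tested.

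Of the interferon pathway, 34 of 40 listed genes were tested, 17 were lower, 4 were higher and 13 did not pass. The shares lower and higher were 50% and 11.8%, against 20.0% and 25.4% over all genes, and the median log2 fold change was -0.24. This list, too, was chosen with earlier results of these data known, so its shares are description only. Without Negative Control 1 or Negative Control 2 the lower genes were 11 or 9 in place of 17. Among the ligands, Ifnb1, the gene of interferon beta, had 259, 360, 200 and 264 counts in GapmeR 1 to 4 and 74 and 114 in the controls. It rose from 2.70 and 3.57 CPM to 7.64, 9.25, 6.45 and 8.17 CPM, which is 1.32 on the log2 scale (edgeR, adjusted p = 1.4e-05, SE 0.17). All GapmeR samples were above both controls, and here GapmeR 2 and 4 were the higher pair. Ifne, an interferon of epithelia, fell by 0.44 on the log2 scale (adjusted p = 0.017, edgeR), a call lost in 5 of 14 alternatives, including those without Negative Control 1 (log2 fold change -0.45) or 2 (-0.39). Ifna2, Ifna4 and Ifna5 had 7 to 63 counts in a sample and did not pass (adjusted p = 0.44, 0.63 and 0.12, edgeR). Ifna1 had at most 2 counts in a sample and Ifng at most 1, and Ifnk, Ifnl2 and Ifnl3 had 0, with a floor of 3 counts (0.0771 to 0.110 CPM) in a sample.

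The transcription factors Irf9 and Stat2, which act together at the ISRE, were lower by small amounts. Irf9 fell by 0.30 (adjusted p = 0.0020, edgeR) and lost the call without Negative Control 2 (log2 fold change -0.25). Stat2 fell by 0.22 (adjusted p = 0.030, edgeR), a call lost in 7 of 14 alternatives, including those without GapmeR 3 (-0.20), Negative Control 1 (-0.27) or Negative Control 2 (-0.12). With scaling by library size alone neither passed.

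Of the receptor subunits, Ifnar2 was at -0.19 on the log2 scale (edgeR, adjusted p = 0.046), a call that no alternative kept, so it is not read as a change, and Ifnar1 was at -0.18 (edgeR, adjusted p = 0.092). Without GapmeR 4 Ifnar1 passed (log2 fold change -0.24). Ifngr2, a subunit of the receptor for interferon gamma, was at 49.2, 47.3, 49.9 and 50.4 CPM after knockdown and at 69.9 and 69.3 CPM in the controls. It fell by 0.50 on the log2 scale (SE 0.07, adjusted p = 1.7e-05, edgeR) and passed in all 14 alternatives. Irf5, a regulator of cytokine genes, fell by 1.52 on the log2 scale (SE 0.17, adjusted p = 7.2e-05, edgeR), as did Socs3, an inhibitor of cytokine receptors, by 0.91 (adjusted p = 2.3e-07, edgeR). The 3 other genes of the pathway that rose were Ikbke, a kinase that activates Irf3, with a log2 fold change of 1.16 (adjusted p = 6.6e-06), Mb21d1, which encodes the DNA sensor cGAS, with 0.45 (adjusted p = 0.0025), and Tyk2 with 0.25 (adjusted p = 0.013), all by edgeR. The Tyk2 call was lost without Negative Control 1 (log2 fold change 0.24).

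To place Mx2 among all genes, its log2 CPM over the 6 samples, centred on its mean, was compared with that of 12771 tested genes at a mean of at least 1 CPM. The nearest were Nemf, Sh3bgrl2, Flot1, Cep95 and Kctd7, at root mean square distances of 0.0377, 0.0473, 0.0625, 0.0653 and 0.0697 on the log2 scale, and none of them is an antiviral gene of the lists. Nemf, a factor of ribosome quality control, was at 62.4 to 66.8 CPM after knockdown and at 26.5 and 28.8 CPM in the controls. This likeness rests on 6 samples in 2 groups. Mx2 was picked for rising between these groups, so the genes nearest to it rise as well. Few antiviral genes of the lists rose, so nothing is read from their absence here.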

How the data were processed

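Ribodepleted RNA of bEND.3 cells was read in pairs, 150 bases from each end. The authors deposited whole-number read counts per Ensembl gene, unnormalized, from trimmed reads aligned with STAR to mm10 (the submitters' processing notes name Trimmomatic 0.36, STAR 2.5.2b and Subread 1.5.2, with GRCm38). Neither the Ensembl release nor the setting for strand is given in the sources used here. There was also 1 column of sample counts, named like those of the controls, that matched no label, and it was not used.

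Samples were grouped by their labels (GapmeR, n = 4, and Negative Control, n = 2). Total counts were 29261988 to 37117934 (3 counts equal 0.0771 to 0.110 CPM, counting error only), and chi-square per degree of freedom between samples of a group was 5.41 to 25.2, so none repeated another within sampling noise. The 18234 genes that reached 5 counts in 2 or more samples were fitted with edgeR 4.0.16 in R 4.3.3 (TMM, robust quasi-likelihood, 2-sided, Benjamini-Hochberg over all of them, threshold 0.05). The study named DESeq2, which was an alternative here (1.42.0), as were limma-voom (3.58.1), other scalings, filters and thresholds, the replicate block and leaving out each sample. Functions were tested on simulated data.

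The 10 genes and the lists were chosen with earlier results of these data known. The text names the 10 genes, Gm39822, the 5 largest changes of each list that passed at a mean of at least 1 CPM, list genes that passed against the majority, interferons, Irf9, Stat2 and receptor subunits, Isg15 enzymes, paralogs, neighbours of Mx2 and its 5 nearest patterns. A gene that this rule also names is not reported here. Bace2, Ifngr2 and the genes of the other observations were named after their values were seen. Positions and promoters come from RefSeq (GRCm38.p6), and exon lengths, overlaps and shared stretches from GENCODE, joined by identifier. Same-numbered samples' deviations correlated at -0.110 and 0.172 over 8870 genes.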

Additional observations from a re-analysis of the deposited data

Results flagged for a closer look

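Of 67 genes examined over the 4 GapmeR samples, 5 had 1 sample far from the other 3 by Dixon's criterion. Chance marks about 1 in 20 such groups. Oas1b was at 102 CPM in GapmeR 2 (gap over range 0.935), Uba7 at 112 CPM in GapmeR 2 (0.986) and Stat2 at 427.5 CPM in GapmeR 2 (0.863), each the lowest of the 4. Ikbke was at 9.26 CPM in GapmeR 4 (0.851) and Trim25 at 443 CPM in GapmeR 1 (0.868), each the highest. None of the 10 antiviral genes was among the 5.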

How the results depend on the processing

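The log2 fold change of Mx2 was 1.40 with scaling by library size alone and 1.17 to 1.38 with each sample left out. Of 67 genes recomputed under the alternatives, 6 changed sign under at least 1 of them (Oas1g, Oas2, Ifna4, Tbk1, Ifit3b and Ifit1bl2), and none of the 6 passed the test on either side of 0. With library size alone, 2135 genes of the table were lower in place of 3643, 8 other antiviral genes were higher in place of 2 and 10 pathway genes were lower in place of 17. At an adjusted p under 0.01, 11 pathway genes were lower. With a fold of at least 1.5 added, 1390 genes of the table, 20 other antiviral genes and 8 pathway genes were lower, and 2 pathway genes were higher. With each sample left out in turn, 1930 to 3949 genes of the table, 27 to 41 other antiviral genes and 9 to 16 pathway genes were lower. The cause was not tested, apart from the stricter thresholds, which pass fewer genes by construction. With the replicate number as a block, which uses 4 samples and leaves 1 residual degree of freedom, Mx2 had 1.31 and Mx1 -1.02, and 7812 of 17524 genes were called. The samples share only a number, and among the named genes the block ended the calls of Ifne, Ifnar2, Stat2, Trim25 and Mavs and added those of Oasl1 and Ifitm2. The fit without GapmeR 3 and 4 was chosen after seeing the data. With 2 controls, the spread of that group rests on 1 difference.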

Other observations

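Families within the lists were looked at by name after their values were seen. Some members of the oligoadenylate synthetase family make the activator of RNase L. In this family, Oas1a (log2 fold change -0.52, adjusted p = 0.00022) and Oas3 (-0.67, adjusted p = 0.0027) were lower by edgeR's test while Oas1b was higher. Oas1c (0.06), Oas1g (0.00) and Oas2 (-0.11) did not pass (adjusted p = 0.65, 0.98 and 0.24, edgeR). Ifitm3, which blocks fusion of virus with endosomes, fell by 0.44 on the log2 scale (adjusted p = 0.0012, edgeR). Its level was 2291 ± 245 CPM (SD, n = 4) for GapmeR and 3112 ± 8.86 CPM (SD, n = 2) for the controls. Ifitm2 was at -0.35 (edgeR, adjusted p = 0.092), and it passed without GapmeR 1 (-0.43). Of the interferon-inducible p200 family, Ifi203 fell by 0.97 (adjusted p = 1.1e-06, edgeR), and Ifi204 had -0.18 (adjusted p = 0.086, edgeR), which passed without GapmeR 1 (-0.23).

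Among the sensing genes 5 of 8 were lower and 2, Ikbke and Mb21d1, were higher by edgeR's test, which is 62.5% and 25.0% of the list against 20.0% and 25.4% of all genes. These shares are description only, since the genes were listed with earlier results of these data known. Tlr3, the endosomal receptor of double-stranded RNA, fell by 0.80 on the log2 scale (adjusted p = 0.00014), Tmem173, which encodes STING, by 0.73 (adjusted p = 0.00033), and the adaptors Ticam1 and Myd88 by 0.65 (adjusted p = 2.9e-05) and 0.58 (adjusted p = 1.2e-05). Mavs fell by 0.23 (adjusted p = 0.035), a call lost in 9 of 14 alternatives, among them those without GapmeR 3 (log2 fold change -0.23), GapmeR 4 (-0.23), Negative Control 1 (-0.22) or Negative Control 2 (-0.21). Tbk1, the kinase that acts with Ikbke, was at 88.0 ± 9.22 CPM (SD, n = 4) and 88.1 ± 4.19 CPM (SD, n = 2). Of the interferon regulatory factors, Irf1 fell by 0.87 (adjusted p = 4.1e-07, edgeR) and Irf7 by 0.61 (adjusted p = 0.012, edgeR), and the Irf7 call was lost without Negative Control 1 (log2 fold change -0.63) or 2 (-0.54).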
